A study of Homo sapiens with 6 samples.

Results

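The protein part of the cytosolic ribosome is encoded by a family of genes that share the symbols RPL, for the large subunit, and RPS, for the small subunit. Genes were taken as members when the symbol is RPL or RPS followed by a number and an optional A, X or L, or is RPLP0, RPLP1, RPLP2 or RPSA. The rule matched 87 of the 56638 gene symbols in the files, and RPL12L3 and RPS10L were left out because RefSeq lists them as pseudogenes. The 85 members are 46 large-subunit genes, 32 small-subunit genes and 7 paralogs, which are RPL3L, RPL7L1, RPL10L, RPL22L1, RPL26L1, RPL39L and RPS27L. The rule reads symbols only, though the family was picked with earlier results of these data known.

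Paired-end RNA sequencing covered 6 samples of a colorectal cancer line of human origin. Samples named SW480_Control siRNA received a control siRNA (3 libraries), and samples named SW480_lncRNA-AF339830 siRNA received an siRNA against that long noncoding RNA, called GLCC1 in the study (3 libraries). Titles end in siRNA1, siRNA2 or siRNA3 in both conditions, and the number is read here as the replicate. The study lists GLCC1 siRNA1 and siRNA2 with different sequences, and the labels do not say whether all 3 libraries received the same one. An siRNA is a short duplex that directs the breakdown of the transcripts it matches, and the study asked what changes in the transcriptome once GLCC1 is depleted. All cells were at passage 16 to 19 and carry no engineered allele by the labels. The labels name the line SW480, an epithelial line from a colorectal tumour, whereas the methods of the study name DLD-1, another colorectal line, for this sequencing.

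The names given to the sequencing libraries go against the sample titles. Libraries titled as control carry AF123 in their names and those titled as GLCC1 siRNA carry NC, so every direction below follows the titles and would turn if the library names were right. GLCC1 has no row of its own in the files, so its depletion could not be checked. FARP1, the gene that contains the GLCC1 locus, stood at -0.77 on the log2 scale, GLCC1 siRNA over control (standard error, SE, 0.08, adjusted p = 9.2e-06 by edgeR). The study states for its experiments in general that biological replicates were collected independently, but the labels do not tie these libraries to separate cultures, and without that p-values measure the spread between these samples, which may be technical. Between 11948790 and 19042516 read pairs fell on genes in a library, the fewest in GLCC1 siRNA replicate 2. That library also stood apart from replicates 1 and 3, with a chi-square per degree of freedom of 16.3 and 17.1 against them, where the other pairs within a condition gave 1.84 to 3.84. Members whose called value or call depended strongly on it are also given without it.

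Ribosomal proteins are made in the cytosol, carried into the nucleus and assembled there with ribosomal RNA, and a mature ribosome holds nearly all of the standard ones. Their messages are among the most abundant in a dividing cell. Most of these messages begin with a C followed by a run of pyrimidines, the 5′ terminal oligopyrimidine (TOP) motif, through which mTOR signalling and the protein LARP1 control their translation. Some ribosomal proteins have a second life outside the ribosome. RPL5 and RPL11 bind the ubiquitin ligase MDM2 when they are not built into ribosomes, and several paralogs can take the place of a standard subunit or act in ribosome assembly.

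The start of the transcript is shown for members that the results turn on. Each window runs from 10 bases before to 20 bases from the RefSeq transcript start (assembly GRCh38.p14), read 5′ to 3′ on the gene's strand. Capitals mark a TOP motif that begins exactly at the annotated start, defined as C followed by at least 4 of C or T, and a window in lower case throughout has none. RPL28 had the largest fall among the standard subunits. RPS3 is a small-subunit member with many counts, RPL11 a member with many counts that was not called lower, and RPS15 a member with a large fall and no TOP at its start. RPL22 and RPL22L1 are a pair that moved apart, whereas RPL7L1 and RPL26L1 are the paralogs with the largest fall and the only rise.
RPL28: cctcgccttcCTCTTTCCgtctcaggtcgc
RPS3: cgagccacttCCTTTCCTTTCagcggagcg
RPL11: gctccgctttCTCTTCCTgctctccatcat
RPS15: aggcgcggaccaaagcgatctcttctgagg
RPL22: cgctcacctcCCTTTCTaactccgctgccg
RPL22L1: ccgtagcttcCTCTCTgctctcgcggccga
RPL7L1: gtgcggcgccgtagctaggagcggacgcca
RPL26L1: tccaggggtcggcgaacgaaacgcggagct

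On GRCh38.p14 these windows lie at chr19:55385922-55385951 (plus strand, RPL28), chr11:75399508-75399537 (plus, RPS3), chr1:23691796-23691825 (plus, RPL11) and chr19:1438386-1438415 (plus, RPS15). Those of RPL22 and RPL22L1 lie at chr1:6199576-6199605 and chr3:170870176-170870205, both on the minus strand. The window of RPL7L1 is chr6:42879606-42879635 and that of RPL26L1 is chr5:172958719-172958748, both on the plus strand. RPL11 and RPL26L1 each have a further annotated start that has no TOP.

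Ribosomal protein genes took a smaller part of the library under GLCC1 siRNA. The 85 members held 3.50%, 3.53% and 3.66% of the counts on genes in the control libraries and 2.99%, 2.67% and 3.19% in the GLCC1 siRNA libraries. The conditions did not overlap, and replicate 2 was the lowest. The difference was -0.610 percentage points, and -0.470 without GLCC1 replicate 2. An exact permutation test, two-sided, gave p = 0.1, the smallest that 3 libraries against 3 can give. Large-subunit genes fell from 2.19% ± 0.0590 to 1.80% ± 0.170 (SD, n = 3) and small-subunit genes from 1.33% ± 0.0292 to 1.11% ± 0.0948 (SD, n = 3), each with the same smallest p = 0.1 in the exact permutation test. The ratio of large-subunit to small-subunit counts was 1.65 ± 0.00821 in the control and 1.61 ± 0.0177 in the GLCC1 siRNA libraries (SD, n = 3, exact permutation p = 0.1). In bulk RNA, fewer cells with a message and less of it per cell cannot be told apart.

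**Figure D1:**
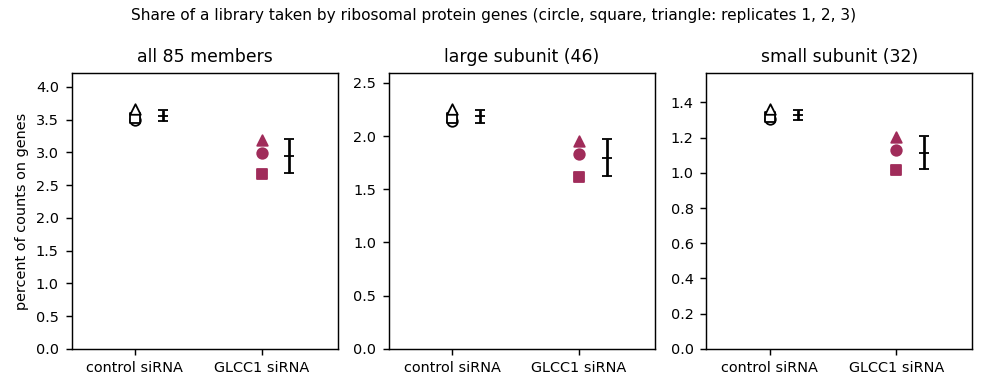
Percent of the counts on genes taken by all 85 members, by the 46 large-subunit and by the 32 small-subunit genes, with 1 point per library and the mean and SD of each condition beside it. The control libraries sit at 3.50% to 3.66% for all members and the GLCC1 siRNA libraries at 2.67% to 3.19%.

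Most members fell by a similar, moderate amount. Of the 81 members with enough counts to test, 60 were lower under GLCC1 siRNA with an adjusted p under 0.05 and 1 was higher, where the fit over all genes called 16.7% lower and 14.9% higher. That is 74.1% of the tested members on the lower side. Ribosomal protein messages are abundant, and among all genes with a mean of at least 100 counts scaled to library size and TMM factor (CPM) the shares called were 34.1% lower and 19.2% higher. Of the 59 members in that range, 49 fell (83.1%) and 0 rose with an adjusted p under 0.05, while 2 of the 59 had a log2 fold change above 0. The median log2 fold change of the 81 members was -0.40, with the middle of the distribution between -0.49 and -0.29, against 0.03 over all genes tested and -0.085 over genes at 100 CPM or more. Only RPL7L1 fell at least 2-fold, and 19 members fell by at least 0.5 on the log2 scale.

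Libraries of the conditions were cleanly apart for most members. In 67 members every GLCC1 siRNA library lay below every control library, where 24.0% of all genes and 41.5% of genes at 100 CPM or more did so. In 3 members, RPL11, RPL22L1 and RPL26L1, every GLCC1 siRNA library lay above every control library, against 22.3% of all genes. The remaining 11 members overlapped. By library, the median log2 difference of the 75 members at 10 CPM or more from their control mean was -0.049, -0.0040 and 0.056 in the control libraries. It was -0.38, -0.54 and -0.28 in GLCC1 siRNA replicates 1, 2 and 3, where 72, 71 and 72 of the 75 members lay below their control mean. All 10378 genes at 10 CPM or more had a median of -0.067, -0.091 and -0.066 in the same 3 libraries.

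**Figure D2:**
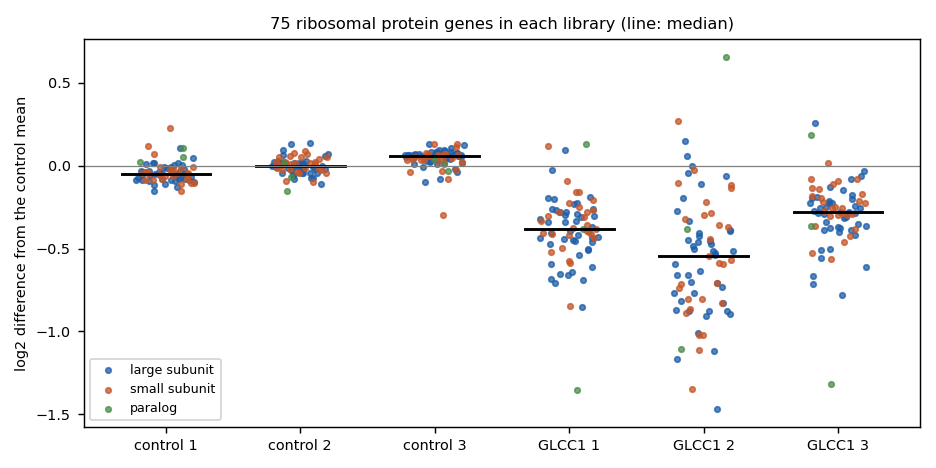
Log2 difference of 75 ribosomal protein genes from their own mean over the control libraries, with 1 point per gene in each library and a line at the median, coloured by subunit class. Points gather near 0 in the control libraries, sit around -0.38 and -0.28 in GLCC1 siRNA replicates 1 and 3, and spread widely around -0.54 in replicate 2.

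The count of lower members depended on which library was left out and on the scaling. Without GLCC1 replicate 2, 66 members were lower and 3 higher, with 22.6% of all genes called lower and 21.6% called higher, and the median became -0.31. Without control replicate 3, 39 members were lower. Scaling by library totals in place of the TMM factors of edgeR moved the median of all genes by 0.12. It left 39 members lower and 3 higher, against 12.1% and 20.5% of all genes, with a median of -0.28. Relative to the median of all genes, the members stood at -0.43 under either scaling. There were 38 members that were called lower in all 6 of the fits that left out a library, and 58 were called lower by both edgeR and DESeq2. The share of all genes called was taken only for the TMM fit of all 6 libraries, library totals and the fit without GLCC1 replicate 2. The other counts of members stand without such a share.

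**Figure D3:**
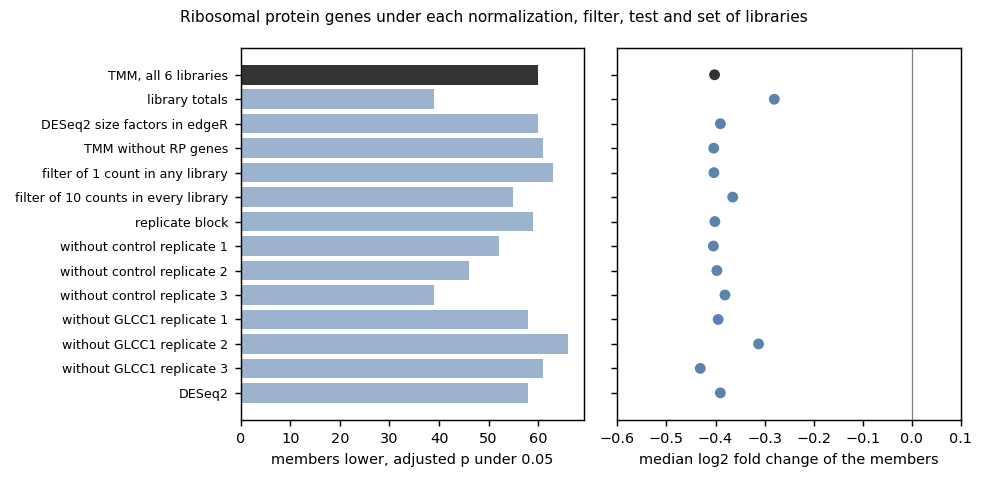
Number of members that were lower, of 81 tested except under the 2 other filters and where a library was left out, with an adjusted p under 0.05 (left, bars) and median log2 fold change of the members (right, points) under each normalization, filter, test and set of libraries, with TMM scaling and all 6 libraries in black. The count runs from 39, with library totals or without control replicate 3, to 66 without GLCC1 replicate 2, and each median lies below 0.

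The large subunit holds the peptidyl transferase centre and the exit tunnel for the new chain. Of its 46 members, 38 fell (82.6%), 0 rose and 8 did not pass, with a median of -0.41. RPL28 had the largest fall of them. It stood at 354, 421 and 378 CPM in the control libraries and at 238, 138 and 233 CPM under GLCC1 siRNA. Replicate 2 was the lowest, and the conditions did not overlap. Its log2 fold change was -0.92 (SE 0.16, adjusted p = 6.0e-04 by edgeR), or -0.70 without replicate 2. RPL28 lies at chr19:55897300-55914618 on hg19, and none of its 100-base stretches occurs in another annotated gene.

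RPL27A, RPL38, RPL9 and RPL26 followed. RPL27A, a standard protein of the large subunit, had 322, 308 and 324 CPM in the control and 176, 187 and 200.5 CPM in the GLCC1 siRNA libraries (log2 fold change -0.76, SE 0.08, adjusted p = 9.8e-06 by edgeR). Here replicate 2 lay between the other libraries of its condition. RPL38, a small protein of the large subunit known from mouse mutants for its part in translating Hox messages, went from 482, 521 and 535 CPM to 318, 278 and 359.6 CPM. Its log2 fold change was -0.68 (SE 0.10, adjusted p = 1.1e-04 by edgeR), and 59.0% of its exon bases are overlapped by another gene. For both genes the 2 ranges were far apart.

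RPL9 and RPL26 were counted at low levels. RPL9 had 36.3, 38.6 and 40.5 CPM against 24.3, 20.9 and 22.3 CPM, with a log2 fold change of -0.77 (SE 0.10, adjusted p = 6.0e-05 by edgeR). RPL26 had 30.3, 28.7 and 31.1 CPM against 22.7, 13.4 and 19.6 CPM, with -0.68 (SE 0.15, adjusted p = 0.0034 by edgeR) and -0.50 without replicate 2. Both genes share over 50% of their 100-base stretches with other genes, 73.1% in RPL9 and 60.6% in RPL26, so their values are those of the part of the transcript that could be placed. In RPL26, 65.3% of the exon bases are also overlapped by another gene. With pseudogene counts added, RPL26 stood at -0.31 and was not called (adjusted p = 0.089 by edgeR), while RPL9 stood at -0.70 (adjusted p = 1.3e-04 by edgeR).

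The acidic P proteins form the stalk that recruits elongation factors to the ribosome. All 3 fell. RPLP0, the base of the stalk, had 866, 871 and 960.1 CPM against 635, 617 and 769 CPM (log2 fold change -0.42, SE 0.09, adjusted p = 0.0036 by edgeR). RPLP2 had 757, 787 and 810.3 CPM against 571, 559.7 and 646 CPM (log2 fold change -0.41, SE 0.08, adjusted p = 0.0015 by edgeR). RPLP1 had 739, 842 and 852 CPM against 677, 497 and 732 CPM, with no overlap and a gap of a few CPM between its lowest control and highest GLCC1 siRNA library. Its log2 fold change of -0.35 (SE 0.12) had an adjusted p = 0.040 by edgeR, which was 0.14 without control replicate 2 or control replicate 3 and 0.15 with library totals. Without GLCC1 replicate 2 the log2 fold change of RPLP1 was -0.20 (adjusted p = 0.0033 by edgeR).

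RPL5 and RPL11 travel together. They enter the large subunit as one particle with a small ribosomal RNA, and the same particle inhibits MDM2 when ribosome assembly is disturbed. RPL5 had 1075, 1057 and 1087 CPM in the control and 795, 786 and 833 CPM in the GLCC1 siRNA libraries, and fell by 0.42 on the log2 scale (SE 0.07, adjusted p = 5.3e-04 by edgeR). RPL11 had 757, 744 and 801 CPM in the control and 819, 850.5 and 916 CPM in the GLCC1 siRNA libraries. The partners thus moved apart, with no overlap between conditions in either gene. The log2 fold change of RPL11 was 0.17 (SE 0.08, adjusted p = 0.12 by edgeR), so it did not pass. It passed with an adjusted p = 0.0057 without GLCC1 replicate 2, with 0.0093 under library totals and with 0.039 once only genes with at least 10 counts per library were kept.

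The ratio of RPL11 to RPL5 counts needs no scaling between libraries. It was 0.704, 0.704 and 0.737 in the control and 1.03, 1.08 and 1.10 in the GLCC1 siRNA libraries. The gap between the conditions was larger than the range within either of them, and the exact permutation test, two-sided, gave the smallest p it can, 0.1. RPL11 shares no 100-base stretch with another gene and RPL5 shares 6.8%, and neither had an overlap with another gene's exons. RPL11 lies at chr1:24018232-24023325 on hg19.

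Other large-subunit members with known roles of their own had log2 fold changes from -0.56 to -0.34. RPL23, which also binds MDM2, had 697, 664 and 740.5 CPM against 552, 533 and 573 CPM (log2 fold change -0.34, SE 0.08, adjusted p = 0.0036 by edgeR). RPL10, which is added late and is needed before subunits can join, had 105, 104 and 113 CPM against 79.3, 57.2 and 82.2 CPM (log2 fold change -0.56, SE 0.12, adjusted p = 0.0029 by edgeR). Without GLCC1 replicate 2 RPL10 stood at -0.41 (adjusted p = 5.6e-08 by edgeR), and 53.6% of its exon bases are overlapped by other genes. RPL3, a core protein near the peptidyl transferase centre, had 1532, 1650.2 and 1738 CPM against 1337, 1056 and 1447 CPM. RPL3 fell by 0.36 on the log2 scale (SE 0.10, adjusted p = 0.019 by edgeR), and did not pass without control replicate 2 (adjusted p = 0.069) or control replicate 3 (adjusted p = 0.096), or with library totals (adjusted p = 0.088). Without GLCC1 replicate 2 RPL3 stood at -0.23 (adjusted p = 6.0e-04 by edgeR).

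The 8 large-subunit members that did not pass were RPL6, RPL11, RPL14, RPL15, RPL17, RPL21, RPL34 and RPL39. RPL15 was the flattest, with 579, 568 and 581 CPM in the control and 565, 558 and 564 CPM in the GLCC1 siRNA libraries. RPL15 stood at -0.03 on the log2 scale (SE 0.07), so its interval of 2 SE excludes the median fall of the members. RPL6 and RPL39 stood at -0.09 and -0.08, and with library totals the signs of RPL6, RPL15 and RPL39 turned. RPL14, RPL17, RPL21 and RPL34 had values between -0.38 and -0.19, and each was called lower without GLCC1 replicate 2.

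**Figure D4:**
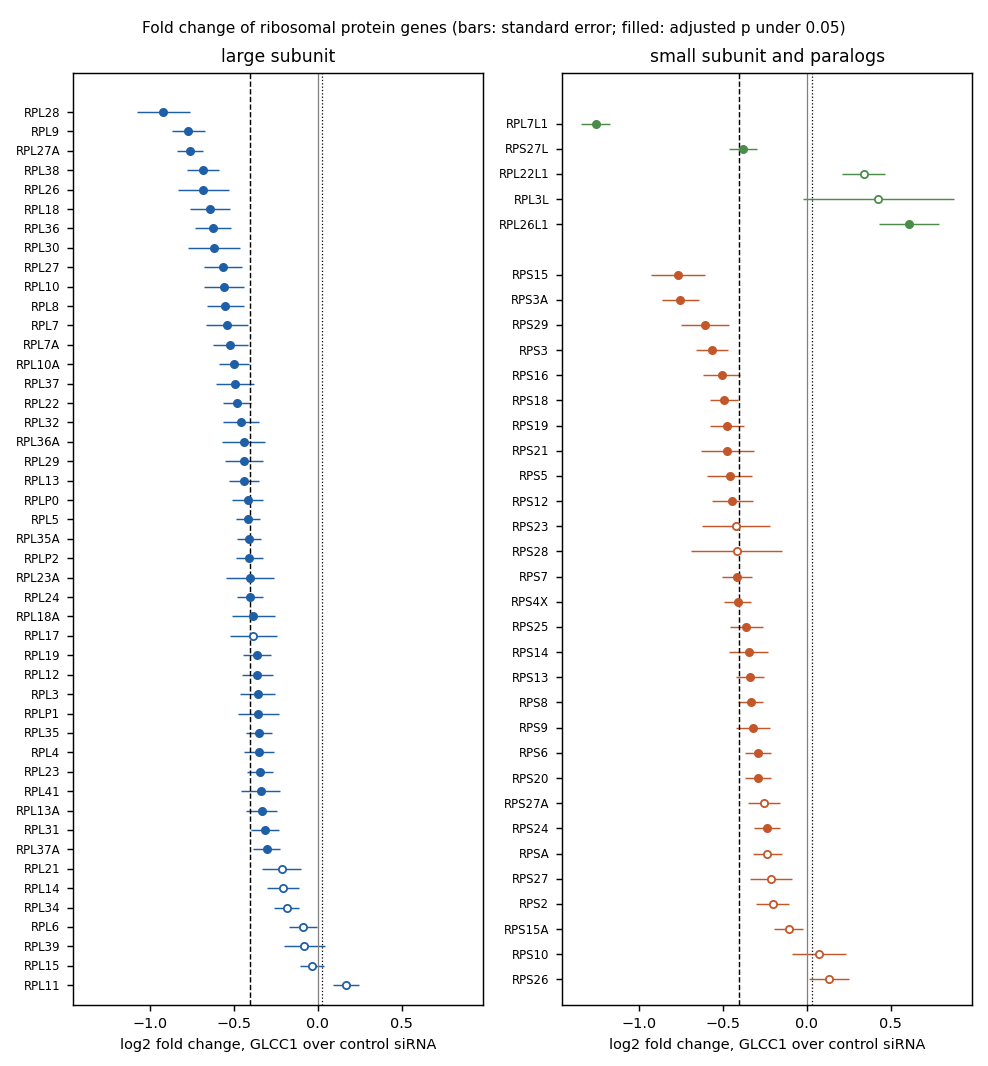
Log2 fold change (GLCC1 siRNA over control siRNA) of tested members with its standard error, large subunit in blue, small subunit in orange and paralogs in green, filled where the adjusted p is under 0.05. The dashed line marks the median of the members (-0.40) and the dotted line that of all genes tested (0.03), with RPL11 and the paralogs RPL22L1, RPL3L and RPL26L1 to the right of 0.

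The small subunit decodes the message. Of its 30 tested members 20 fell (66.7%), 0 rose and 10 did not pass, with a median of -0.35, and with library totals 10 were lower. RPS15, a protein in the head of the subunit, had 158, 161 and 172 CPM in the control and 109, 64.3 and 113 CPM in the GLCC1 siRNA libraries. Replicate 2 lay far below the other libraries. The log2 fold change was -0.77 (SE 0.16, adjusted p = 0.0022 by edgeR), and -0.55 without replicate 2. RPS3A had 28.5, 31.8 and 31.7 CPM against 17.0, 16.8 and 20.7 CPM (log2 fold change -0.75, SE 0.11, adjusted p = 1.8e-04 by edgeR), with 72.6% of its 100-base stretches shared with other genes.

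RPS3, which binds the incoming message and also acts in DNA repair, had 1201, 1229.8 and 1246 CPM in the control libraries. It had 869, 701 and 913 CPM under GLCC1 siRNA and fell by 0.57 on the log2 scale (SE 0.09, adjusted p = 4.4e-04 by edgeR). RPS4X, an X-linked member, had 959, 1003 and 1019 CPM against 752, 681 and 808 CPM (log2 fold change -0.41, SE 0.08, adjusted p = 0.0015 by edgeR). RPS6, the substrate of the S6 kinases downstream of mTOR, had 1376, 1394 and 1469 CPM against 1066, 1214 and 1182 CPM. The libraries of these 3 genes did not overlap between conditions. RPS6 fell by 0.29 on the log2 scale (SE 0.08, adjusted p = 0.010 by edgeR), and did not pass without control replicate 3 (adjusted p = 0.072) or GLCC1 replicate 1 (adjusted p = 0.054), or with library totals (adjusted p = 0.11).

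RPSA, the laminin receptor precursor, had 123, 137 and 137 CPM against 118, 106 and 113 CPM, a log2 fold change of -0.23 (SE 0.09, adjusted p = 0.051 by edgeR). RPS27A, made as a fusion with ubiquitin, had 108, 102 and 117 CPM against 83.4, 101 and 90.0 CPM, a log2 fold change of -0.26 (SE 0.10, adjusted p = 0.055 by edgeR). Both genes were just short of the threshold, both had non-overlapping libraries, and both were called lower without GLCC1 replicate 2. With library totals they were further from it, at adjusted p = 0.34 for RPSA and 0.32 for RPS27A by edgeR. RPSA shares 59.1% of its 100-base stretches with other genes, and 31.7% of the exon bases of RPS27A are overlapped by another gene.

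Among the other small-subunit members that did not pass were RPS2, RPS10, RPS15A, RPS23, RPS26, RPS27 and RPS28. RPS28 had 1.91 CPM in GLCC1 replicate 2 against 6.15 and 4.36 CPM in the others of its condition. RPS23 varied in both conditions, with 69.2, 61.9 and 48.1 CPM against 49.7, 27.3 and 55.9 CPM. RPS10 and RPS26 had log2 fold changes of 0.07 (SE 0.16) and 0.13 (SE 0.12) at means under 15 CPM, and without control replicate 2 RPS10 stood at -0.057.

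The 7 paralogs went separate ways. RPL7L1, a relative of RPL7 that is found on ribosome precursors and not on mature ribosomes, had the largest fall of the members. Its values were 257, 236 and 249 CPM in the control and 96.9, 115 and 99.3 CPM in the GLCC1 siRNA libraries. The groups were widely separated and replicate 2 was the highest of its condition. The log2 fold change was -1.26 (SE 0.09, adjusted p = 3.4e-07 by edgeR), a 2.39-fold fall, and lay between -1.33 and -1.21 in the 6 fits that left out a library. RPL7L1 lies at chr6:42847354-42857663 on hg19, with 6 exons in its main transcript and no exon overlapped by another gene. RPL7 itself fell by 0.54 on the log2 scale, from 19.7, 22.1 and 18.8 CPM to 12.4, 16.0 and 13.7 CPM (SE 0.12, adjusted p = 0.0043 by edgeR), but 53.4% of its 100-base stretches occur in other genes.

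RPL26L1, whose protein is nearly the same as RPL26, was the only member to rise. It had 5.69, 4.30 and 5.18 CPM in the control and 7.66, 5.97 and 9.17 CPM in the GLCC1 siRNA libraries, and the lowest of the latter was only slightly above the highest of the former. The log2 fold change was 0.61 (SE 0.18, adjusted p = 0.019 by edgeR). The call was lost without control replicate 2 (adjusted p = 0.11), control replicate 3 (adjusted p = 0.059) or GLCC1 replicate 3 (adjusted p = 0.090). RPL26L1 made up 14.4% ± 1.40 of the counts of the pair with RPL26 in the control and 29.3% ± 3.55 in the GLCC1 siRNA libraries (SD, n = 3, exact permutation p = 0.1, two-sided, the smallest possible). This share rests on the part of each transcript that could be placed. RPL26 shares 60.6% of its 100-base stretches with other genes and RPL26L1 shares 21.3%.

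RPL22L1 and its parent RPL22 moved apart. Both proteins occupy the same place on the ribosome, and the RPL22 protein is known to restrain the message of RPL22L1. RPL22 had 324, 329.7 and 351 CPM in the control and 219, 252 and 250.2 CPM in the GLCC1 siRNA libraries, and fell by 0.48 on the log2 scale (SE 0.08, adjusted p = 6.1e-04 by edgeR). RPL22L1 had 169, 142 and 162 CPM against 172, 248 and 179 CPM. Its conditions were separated by a few CPM except for GLCC1 replicate 2, which stood well above the rest. The log2 fold change of RPL22L1 was 0.34 (SE 0.13, adjusted p = 0.057 by edgeR) and did not pass, and without GLCC1 replicate 2 it was 0.16 with an adjusted p = 0.029. The share of RPL22L1 in the counts of the pair was 34.3%, 30.1% and 31.6% in the control and 43.97%, 49.5% and 41.7% in the GLCC1 siRNA libraries (exact permutation p = 0.1, two-sided, the smallest possible).

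**Figure D5:**
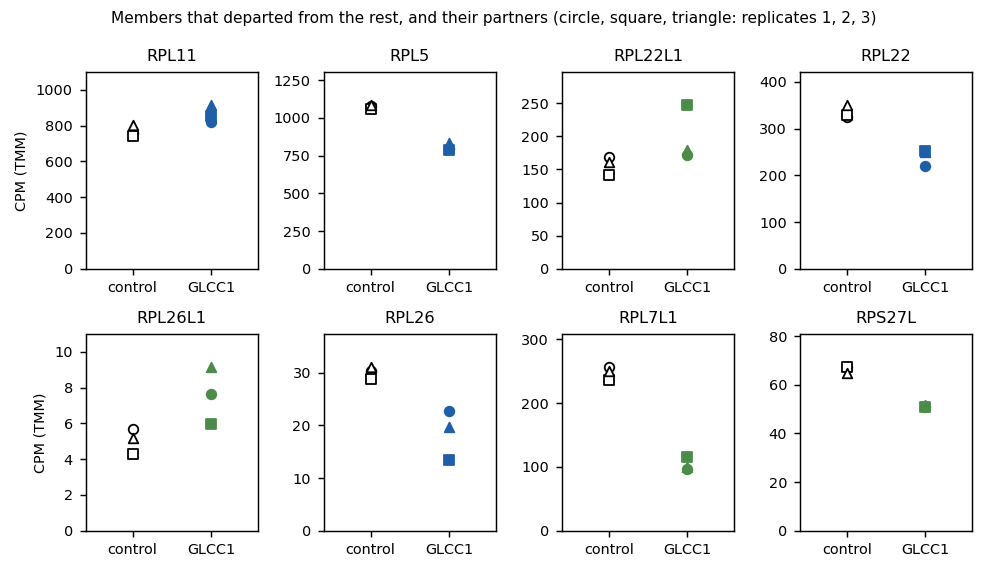
CPM of RPL11 and its partner RPL5, and of the paralogs RPL22L1, RPL26L1, RPL7L1 and RPS27L beside RPL22 and RPL26, with 1 symbol per library (circle, square and triangle for replicates 1, 2 and 3). RPL5, RPL22 and RPL26 lie lower under GLCC1 siRNA, while RPL11, RPL22L1 and RPL26L1 lie higher in each of the 3 libraries, RPL22L1 most of all in replicate 2 (248 CPM).

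RPS27L, a relative of RPS27, had 67.5, 67.2 and 64.9 CPM against 50.9, 51.0 and 51.7 CPM. The libraries within a condition differed little, and it fell by 0.38 on the log2 scale (SE 0.08, adjusted p = 0.0034 by edgeR). RPS27 had 11.7, 12.6 and 11.7 CPM against 9.12, 10.9 and 11.1 CPM with a log2 fold change of -0.22 (adjusted p = 0.22 by edgeR), and 61.7% of its 100-base stretches are shared with other genes. RPS27L made up 84.7% of the counts of that pair in the control and 83.2% in the GLCC1 siRNA libraries, which overlapped (exact permutation p = 0.3, two-sided). RPL3L, the form of RPL3 in heart and skeletal muscle, was near the limit of counting at 0.331 to 0.671 CPM, with a log2 fold change of 0.43 (SE 0.45, adjusted p = 0.51 by edgeR).

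RPL10L and RPL39L, whose expression is best known from the testis, had 0 counts in all 6 libraries.

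The counting kept only reads with a unique place, which bears on all members that have processed copies in the genome. In 43 tested members under 10% of the 100-base stretches were shared and under 10% of the exon bases overlapped. Of these 35 fell, 0 rose, and the median was -0.40 at a median level of 541 CPM. In 11 members over 50% of the stretches were shared, and there 5 fell, 0 rose, and the median was -0.38 at a median level of 17.1 CPM. The annotated pseudogenes named after members took 1.31% ± 0.0322 of the counts in the control and 1.10% ± 0.110 in the GLCC1 siRNA libraries (SD, n = 3, exact permutation p = 0.1, two-sided). Of the 179 of them with enough counts to test, 33 fell (18.4%) and 5 rose (2.79%), or 17 and 7 with library totals. The share that fell was thus near the 16.7% of all genes called lower. With pseudogene counts added to their member, the median of the members was -0.36.

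Levels of different members were set side by side per length, and only where little of the main transcript was shared or overlapped. That limit is taken over the whole transcript and does not show how many reads on the coding part were lost. The length is that of the coding sequence, while the counts take in reads on the whole transcript, so the order depends on that choice. RPLP1 and RPLP2 have 342 and 345 coding bases but main transcripts of 1174 and 462 bases. Over 34 standard members with a coding length of at least 300 bases and under 10% of sequence shared or overlapped, the control mean ran from 139 to 3025 CPM per kb of coding sequence, with a median of 1337. RPL8, which lies near the peptidyl transferase centre, was the highest, at 2959 to 3118 in the 3 control libraries, and next came the stalk proteins RPLP1 (2162 to 2490.1) and RPLP2 (2193 to 2349), whose ranges overlapped. RPL27 and RPL35A followed with 1934 and 1926, which overlapped too. At the low end RPS15A (142 to 149.9) and RPS23 (112 to 161) overlapped each other and lay well under RPL14 (435 to 511). With pseudogene counts added, the log2 fold change of RPS23 went from -0.42 to -0.25 and that of RPL14 from -0.21 to -0.30. The part of pseudogene reads in these levels was not tested. RPL11, at 1437 in the control, stood at 1614 under GLCC1 siRNA, while RPL8 went to 2067 on the same scale.

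GLCC1 replicate 2 differed from the other libraries of its condition in how unevenly the members were shifted. The interquartile range of the members' log2 difference from the control mean was 0.48 in this library, 0.19 and 0.18 in GLCC1 replicates 1 and 3, and 0.044 to 0.068 in the control libraries. Against the mean of replicates 1 and 3, 57 of the 75 members at 10 CPM or more were lower in replicate 2, with a median of -0.19. RPS23 was the lowest on this measure at -0.95, followed by RPS15 at -0.79 and RPL28 at -0.77, and RPL22L1 was the highest at 0.50, with RPL7 at 0.30 and RPL7L1 at 0.23 next. Across the 75 genes, which share 1 library and are not independent replicates, this difference had a Pearson correlation of -0.43 and a Spearman correlation of -0.45 with the GC content of the transcript. The library also had the largest share of read pairs on no gene, 12.7%, where the control libraries had 9.82% to 10.1% and the other GLCC1 siRNA libraries 10.96% and 11.2%. The part of these differences in the results was not tested.

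TOP motifs were common at the transcript starts of these genes. Of the 67 members in the RefSeq promoter table, 47 have a TOP motif exactly at an annotated start (70.1%), where 5.14% of 27305 genes and 6.24% of the 15843 protein-coding ones do. Within 10 bases of the start the shares were 86.6% and 38.43%. In the windows above, RPL28, RPS3, RPL11, RPL22 and RPL22L1 carry the motif and RPS15, RPL7L1 and RPL26L1 do not. Of the 47 with a TOP exactly at a start, 36 fell and 0 rose with a median of -0.40. Of the 19 tested members without it there, 13 fell and 1 rose with a median of -0.41. Several of the latter, RPS15 among them, have the motif within 10 bases of the start, as 58 of the 67 members do. The split thus depends on the annotated start, and a difference between its sides was not tested.

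Motifs of known promoter factors were searched on both strands from 250 bases before to 50 bases after the start. TCGCGAGA, a palindrome found in housekeeping promoters, was in 17.9% of the 67 members and in 1.37% of all genes in the table. The 12 members with it had a median of -0.49 on the log2 scale with 10 fallen, and the other 54 tested members had -0.37 with 39 fallen. Among the 12, the falls were largest in RPS15, RPL27A, RPL26 and RPL10 and smallest in RPL4 (-0.35) and RPS6 (-0.29). RPL17 and RPS28, which also carry the motif, did not pass. A difference between members with and without it was not tested. CCGGAAG, an ETS-type site, was in 35.8% against 12.16%, and AAGATGG, a YY1-type site, was in 13.4% against 7.11%. GGGCGG, the core of the GC box, was in 58.2% of members and 48.3% of all genes, though in 64.26% of protein-coding genes. TATAAA was in 10.4% against 13.99% and CACGTG, the E-box bound by c-Myc and Max, in 7.5% against 8.77%. Of the 5 members with CACGTG, 4 fell, among them RPL7L1, and of the 61 tested without it 45 fell and 1 rose.

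Lists of genes linked to the ribosomal proteins were counted in the same fit, and each count is read against the 16.7% lower and 14.9% higher over all genes. FAU and RPL36AL encode ribosomal proteins outside the rule. FAU fell by 0.37 on the log2 scale (adjusted p = 0.015 by edgeR), while RPL36AL had -0.25 (adjusted p = 0.060), and -0.16 (adjusted p = 0.016) without GLCC1 replicate 2. Of 11 listed chaperones, escorts and assembly factors 7 fell and 0 rose, with a median of -0.39, and with library totals 5 fell. Not all of them serve a single ribosomal protein, and the list takes in NACA and BTF3, at -0.14 and -0.12, which did not pass. LTV1, an assembly factor of the small subunit, had 52.4 ± 4.48 CPM in the control and 26.1 ± 2.72 CPM in the GLCC1 siRNA libraries (SD, n = 3, log2 fold change -1.01). PDCD2, which escorts RPS2, had 68.1 ± 4.84 and 34.8 ± 3.79 CPM (SD, n = 3, log2 fold change -0.97), HEATR3, which carries RPL5 and RPL11, had -0.81, and GRWD1, which binds RPL3, had -0.50. The escort TSR2 of RPS26 had 0.09, with RPS26 itself at 0.13, and neither passed.

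Other messages known to carry a TOP were counted too. Of 19 tested translation factors and noncoding host genes of this kind, 7 fell and 1 rose, with a median of -0.20, and with library totals 6 fell and 3 rose. Their median level was 291 CPM. The share that fell, 36.8%, was near the 34.1% called lower among all genes at 100 CPM or more. EIF4B, an initiation factor, fell by 1.65 on the log2 scale from 413 ± 15.2 to 132 ± 15.5 CPM (SD, n = 3, adjusted p = 7.4e-08 by edgeR). EIF3L had -0.63, EEF1B2 had -0.56 and GNB2L1, the older symbol of the small-subunit scaffold RACK1, had -0.50. EIF3F was the 1 that rose, at 0.40 (adjusted p = 0.0058 by edgeR), and was named after its value was seen. EEF1A1, the most used elongation factor, stood at -0.01 and PABPC1 at 0.12, and neither passed, though PABPC1 did with library totals (adjusted p = 0.014).

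Of 12 regulators of TOP messages 2 fell and 0 rose, with a median of -0.21. RPS6KB1, a kinase of RPS6, had -0.69 and TSC1, a brake on mTOR, had -0.42, whereas LARP1 stood at -0.04 and MTOR at -0.15. In the pathway that senses free ribosomal proteins 3 of the 4 tested genes fell, CDKN1A with a log2 fold change of -0.55, MDM2 with -0.38 and MDM4 with -0.38. CDKN2A had too few counts to test. Of 7 factors with sites in these promoters 2 fell and 1 rose. MYC, an activator of ribosome production that binds E-boxes, fell by 0.48 on the log2 scale (SE 0.10, adjusted p = 0.0030 by edgeR), SP1 by 0.32, and ZBTB33 had 0.47 (adjusted p = 0.0012). With library totals MDM2, MDM4 and SP1 no longer passed (adjusted p = 0.061, 0.057 and 0.070).

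The mitochondrial ribosome has its own proteins, encoded in the nucleus and built into a separate particle. Of 75 tested MRPL and MRPS genes 32 fell (42.7%) and 3 rose, with a median of -0.23, at a median level of 48.2 CPM, and with library totals 21 fell and 9 rose. Their share called lower was thus above that of all genes and under the 74.1% of the cytosolic members. Whether the difference goes beyond what their lower counts allow was not tested.

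Most epithelial markers were lower in the same libraries. Of 8 epithelial markers 5 fell (62.5%) and 0 rose, with a median of -1.002, against 16.7% lower and 14.9% higher over all genes. Their median level was 246 CPM, and 34.1% of genes at 100 CPM or more were called lower. CEACAM5, at a mean of 0.248 CPM, was near the limit of counting and did not pass. With library totals 4 markers fell and 1 rose, against 12.1% and 20.5% of all genes. VIL1, a protein of the brush border, went the other way, with each GLCC1 siRNA library above the control libraries and a log2 fold change of 0.21 (adjusted p = 0.067 by edgeR), or 0.33 with library totals (adjusted p = 0.0056). KRT18 and KRT8 had the largest falls, with log2 fold changes of -1.82 and -1.61. The summed level of all 8 markers was 5407 to 5911 CPM in the control and 2087 to 2523 CPM in the GLCC1 siRNA libraries. The leukocyte genes PTPRC and CD3E, the fibroblast genes COL1A2 and DCN, the endothelial genes PECAM1 and CDH5 and the hepatocyte gene ALB had too few counts to test. CD14 did not pass, with 0.44 (adjusted p = 0.14 by edgeR), nor did VWF with 0.31, and COL1A1 fell by 0.86 on the log2 scale from a mean of 13.4 CPM. The part of these genes in the change of the ribosomal protein genes was not tested.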

How the data were processed

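The authors mapped paired-end reads to hg19 with TopHat2 2.0.11 on an Ensembl GRCh37 transcript index and counted read pairs per gene with HTSeq in union mode. The deposited values are raw counts, 1 file per library, without normalization or filter. Read pairs that HTSeq gave to no feature (9.82% to 12.7% of all), to several features (7.30% to 7.79%) or to several places (10.8% to 12.4%) were left out of tests. The setting for strand was not given in the sources used here, so overlapping genes on opposite strands may share reads.

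Libraries were grouped by title. A gene was kept when its counts in at least 1 of the conditions added up to 5 or more, as the methods of the study state, which left 23074. edgeR 4.0.16 (R 4.3.3) fitted its robust quasi-likelihood model with TMM factors, Benjamini-Hochberg adjustment ran over all of these genes, and a call is an adjusted p under 0.05. CPM use the TMM factors. Single values per library were compared with the exact permutation test (scipy 1.17.1). The procedure was tested on simulated data. Between 11948790 and 19042516 read pairs per library were on genes, and the SE of a log2 fold change was 0.07 for RPL5 at over 500 CPM and 0.18 for RPL26L1 at under 10 CPM.

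Gene positions, coding lengths and shared 100-base stretches come from GENCODE 44 mapped to hg19, and transcript starts and promoters from RefSeq on GRCh38.p14, which held 67 of the 85 members. Members, gene lists and named genes were chosen with earlier results of these data known. Any member could be named. Always given are the 8 largest falls and rises among the called members, the paralogs and their parents, members with a known role of their own, and up to 4 called genes at 10 CPM or more from each list. Alternatives were DESeq2 1.42.0, DESeq2 size factors, library totals, TMM factors without the members, filters of 1 count in any library and 10 in every library, a replicate block, each library left out, the conditions of the library names, and pseudogene counts added. The analysis of members with little shared or overlapped sequence was added after seeing the data. Values of a few genes that entered the fits and counts are not reported here.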

Additional observations from a re-analysis of the deposited data

How the results depend on the processing

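The count of members lower, 60 over all libraries, was 39 with library totals and ran from 39 to 66 when a library was left out. Members higher, 1 over all libraries, were 3 with library totals, 2 with a filter of 1 count in any library, 3 with a filter of 10 counts in every library, 2 with DESeq2, and 0 to 3 when a library was left out. Small-subunit members lower were 10 with library totals in place of 20. The median log2 fold change ran from -0.43 to -0.31 when a library was left out and is 0.40 under the conditions of the library names, which exchange the groups. The share of members with a TOP rose from 70.1% to 86.6% when a start within 10 bases was allowed. The difference in summed share ran from -0.727 to -0.470 percentage points when a library was left out, and was -0.451 with all read pairs as denominator. Single genes turned sign with library totals, which moved the median of all genes by 0.12: RPL15 stood at 0.088, RPL39 at 0.044, RPL6 at 0.035 and RPS15A at 0.015. RPL15 was also 0.0046 with the filter of 10 counts, and RPS10 ran from -0.057 without control replicate 2 to 0.18 without control replicate 1.

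Libraries with the same replicate number were not more alike than other pairs. Deviations from the condition means correlated at -0.24 to -0.0014 in same-numbered pairs and at -0.20 to 0.21 in other pairs. The deviations of 3 libraries from their own mean depend on each other, so these values cannot decide whether the numbers pair the libraries. With the replicate number as a block, 59 members were lower and 1 higher, with a median of -0.40. Groups of 3 libraries are too small for a test of single outlying libraries.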
